A study of Mus musculus with 6 samples.

Results

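The spliceosome, SR protein and hnRNP genes are the protein-coding genes of the deposited table whose symbol begins with Srsf and a digit, with Hnrnp, with Sf3a or Sf3b, or with Snrp. This rule took 53 of the 78409 genes in the table, namely 12 SR protein genes, 20 hnRNP genes, 9 genes of the SF3 complex and 12 genes of Sm and other snRNP proteins. The rule reads the symbols and biotype alone and no measured value, but it was proposed with earlier results of these data known. RNA was measured in whole hearts of mice aged 11 months, 3 with Ybx1 deleted in cardiomyocytes only (knockout) and 3 littermates (control), in separate libraries with 12270796 to 15141525 counts each. The labels do not give the Cre line, the floxed alleles, the strain or the sex of either group, and other cells of the knockout hearts keep Ybx1. The labels number the hearts but do not say how they were collected, so p-values measure the spread between these 6 libraries.

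Introns are cut from pre-mRNA by the spliceosome, which is built anew on each intron from small nuclear ribonucleoproteins (snRNPs). A ring of Sm proteins holds the small nuclear RNA of most snRNPs, and the SF3A and SF3B proteins of the U2 snRNP settle on the branch point. SR proteins bind exons through RNA recognition motifs and recruit the spliceosome through tails rich in arginine and serine, while hnRNP proteins coat nascent RNA and often oppose exon inclusion. YBX1, the protein whose gene was deleted, also binds RNA and was named for the Y-box, a promoter sequence with a CCAAT core read on the opposite strand.

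Ybx1 (ENSMUSG00000028639), the deleted gene, stood at 851, 813 and 898 CPM in control hearts 1, 2 and 3. The values in knockout hearts 1, 2 and 3 were 203, 172 and 110 CPM. CPM, counts per unit of library depth, are scaled here between libraries by TMM factors. The groups did not overlap, in the direction the labels give, and the knockout mean was 18.9% of the control mean (log2 fold change -2.40, SE 0.27). The edgeR adjusted p over all genes was 0.148, so this drop too missed the threshold of 0.05, and it passed without knockout heart 3 (edgeR adjusted p = 0.0150), in DESeq2 (adjusted p = 2.05e-16) and in edgeR without the filter on low values (adjusted p = 1.06e-12). In RNA of whole hearts, fewer cells of a type and less RNA per cell cannot be told apart.

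The libraries differed in composition, within the groups as well as between them. Malat1, a nuclear noncoding RNA, was at 668 deposited CPM in knockout heart 3, at 7923 in control heart 2 and at 3317 to 6166 in the other 4. Genes of the class TEC, unspliced clusters of polyadenylated sequence, summed to 669, 2497 and 1586 to 2313 deposited CPM in the same order, and mitochondrial rRNA took 10.7%, 26.3% and 20.5% to 24.5% of counts. Cardiomyocyte markers marked every library as heart: all 7 were detected, and they summed to 20222 to 23742 CPM in the controls and 16867 to 21757 CPM in the knockouts. Endothelial markers (5 of 5 detected) summed to 283 to 361 CPM in control hearts and 219 to 439 CPM in the knockouts, with knockout heart 3 the lowest. Atrial markers (3 of 3 detected) summed to 8.01 to 210 CPM and 2.45 to 184 CPM, with wide overlap. Macrophage markers (6 of 6) summed to 58.3 to 70.05 CPM in control and 78.5 to 89.1 CPM in knockout hearts and fibroblast markers (6 of 6) to 619 to 736 CPM and 739 to 936 CPM, without overlap of the groups. Neutrophil markers (3 of 3) also did not overlap, at 2.68 to 5.17 CPM in control and 5.34 to 11.1 CPM in knockout hearts. The gap between the groups was narrow for fibroblast and neutrophil markers. Erythroid markers (3 of 3) overlapped, at 2152 to 3371 CPM in control and 2538 to 4559 CPM in knockout hearts. So did T, B and NK cell markers (5 of 5), at 1.39 to 1.57 CPM and 0.88 to 2.95 CPM, and adipocyte markers (3 of 3), at 0.092 to 1.26 CPM and 0.23 to 0.82 CPM. Smooth muscle and pericyte markers (5 of 5) summed to 507 to 630.02 CPM and 404 to 692 CPM, with knockout heart 3 the lowest. The part of these differences in the values below was not tested.

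No gene of the 4 classes passed the comparison of knockout with control hearts, tested by edgeR's quasi-likelihood F with Benjamini-Hochberg adjustment over all genes. Genes with at least 1 CPM in at least 3 libraries were tested, and 51 of the 53 passed this filter. The other two, Srsf8 and Srsf12, had 0 counts in all 6 libraries. Of the 51, 0 passed the adjusted threshold, against 0 of 13717 tested genes (0%), and the smallest adjusted p among them was 0.694. At unadjusted p below 0.05 there was 1, Sf3b6, higher in knockout, where 5.14% of all tested genes passed and 2.69% did so in that direction. Without knockout heart 1 there were 6 (Sf3b6, Snrpb, Snrpd3, Snrpe, Snrpg and Snrpn), where 12.7% of all tested genes passed, and there were 0 without control heart 1, control heart 2 or knockout heart 3. DESeq2 and limma-trend called 0 of the 51 as well, and 15 and 0 of all genes. Without the filter on low values edgeR called 133 of 33251 genes, and Sf3b6 alone of the 51.

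For most of these genes the fit left out a 2-fold difference. The 95% interval of the fold change lay inside 2-fold in either direction for 42 of the 51 genes, against 63.5% of all tested genes. All 20 hnRNP genes and 9 of 10 SR genes were within this bound, but 5 of 9 SF3 genes and 8 of 12 snRNP genes. The median SE of the log2 fold change was 0.19, and 0.26 over all tested genes. Genes were not matched for level in these comparisons. The fold changes of 30 genes lay above 0 and of 21 below it, with a median of 0.06 (log2), where 51.1% of all tested genes lay above 0 and their median was 0.01. On the scale of total counts, which put the median of all genes at 0.17, 43 of the 51 lay above 0 and 8 below it. The 3 knockout values all exceeded the 3 control values in 4 genes (Sf3b6, Snrpd1, Hnrnpab and Hnrnpk), against a background of 6.26%, and all lay below them in 2 (Srsf6 and Hnrnpul2), against 5.82%. These shares of the 51 are near the background.

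**Figure D1:**
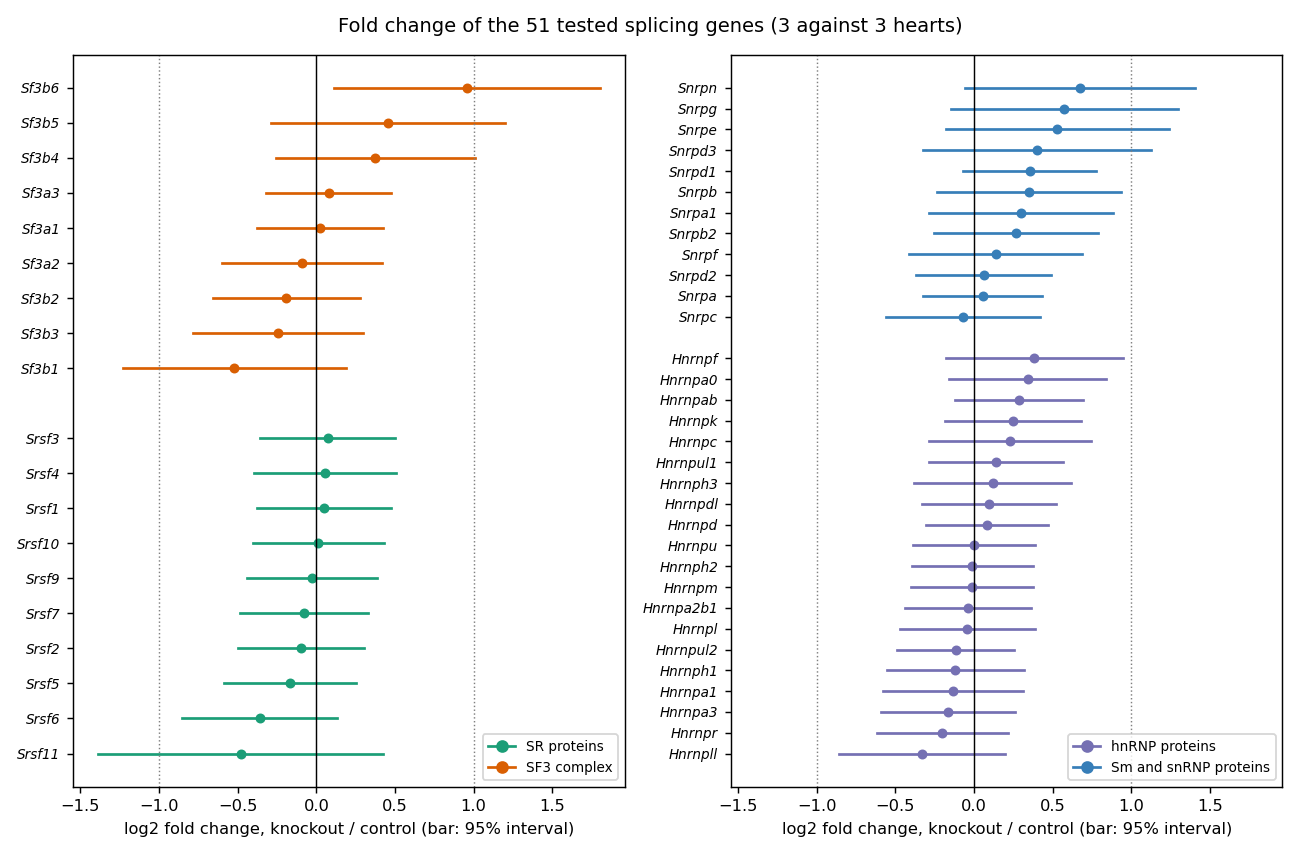
Log2 fold change of knockout over control (x axis) for each of the 51 tested genes (y axis), coloured by class, with points for the estimate and bars for its 95% interval from edgeR. Dotted lines mark a 2-fold difference. The interval of Sf3b6 is the only one that leaves out 0, and all 20 hnRNP intervals lie between the dotted lines.

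SR proteins are the classic activators of splicing. None of the 10 tested SR genes passed an unadjusted p of 0.05; 4 lay above a fold change of 0 and 6 below it, with a median log2 value of -0.05. Srsf6 (ENSMUSG00000016921) encodes an SR protein with paired RNA recognition motifs. In hearts 1, 2 and 3 it was at 69.3, 92.3 and 68.3 CPM in the controls and at 67.8, 64.1 and 47.0 CPM in the knockouts. All knockout values lay below all control values, but knockout heart 1 and control heart 3 were almost level. The log2 fold change was -0.36 (SE 0.22, interval -0.86 to 0.13, edgeR adjusted p = 0.694), and -0.21 without knockout heart 3, -0.22 without control heart 2 and -0.06 without both.

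Srsf11 (ENSMUSG00000055436), an SR-related protein also known as p54, had the widest spread among control hearts of the 51 genes, a coefficient of variation of 43.9%. Its values were 70.9, 137 and 65.01 CPM in the controls and 92.4, 68.6 and 34.5 CPM in the knockouts. Control heart 2 was the highest and knockout heart 3 the lowest, which are also the highest and lowest hearts for Malat1, while the other 4 hearts of both groups overlapped. Its log2 fold change of -0.48 (interval -1.39 to 0.43) was -0.08 without control heart 2, -0.17 without knockout heart 3, -0.82 without knockout heart 1 and 0.25 without control heart 2 and knockout heart 3 together.

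Srsf3, the smallest SR protein and a regulator of mRNA export as well as splicing, was at 80.7, 82.6 and 73.2 CPM in the controls and 82.3, 70.2 and 96.2 CPM in the knockouts. The groups overlapped fully (log2 fold change 0.07, interval -0.36 to 0.50). Srsf5 was at 85.7, 103 and 82.1 CPM in the controls and 86.03, 83.1 and 71.3 CPM in the knockouts (-0.17, interval -0.59 to 0.25). The remaining 6, Srsf1, the founding member and an oncogene when in excess, Srsf2, Srsf4, Srsf7, Srsf9 and Srsf10, had fold changes from -0.10 for Srsf2 to 0.06 for Srsf4 (log2).

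**Figure D2:**
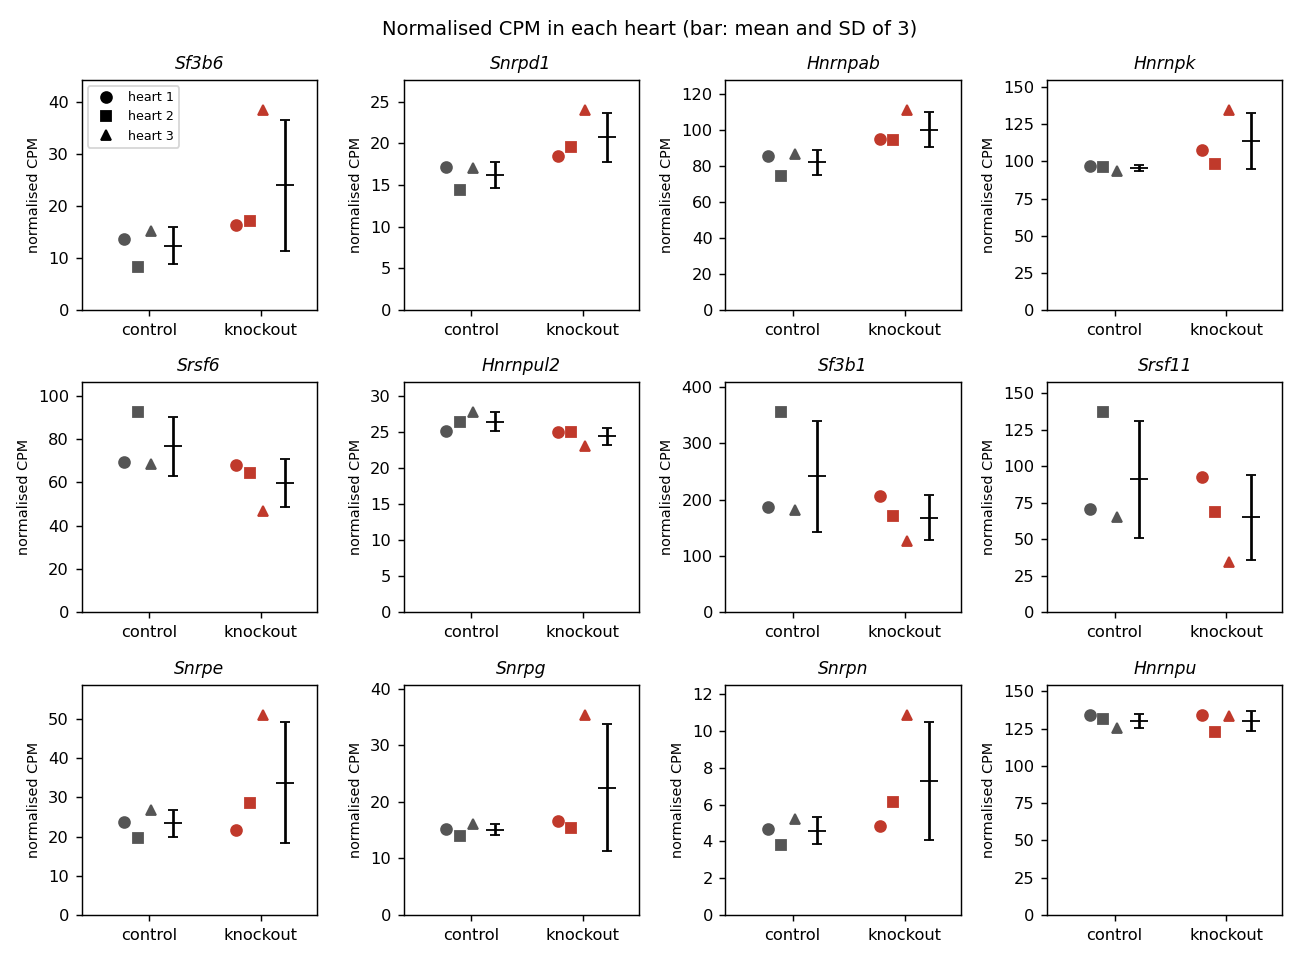
Normalised CPM (y axis, from 0) of 12 genes in each heart, by group (x axis); circles, squares and triangles are hearts 1, 2 and 3 of each group, and the bar beside them is the mean with its SD (n = 3). Knockout heart 3, the red triangle, is the highest of all 6 hearts for Sf3b6, Snrpe, Snrpg and Snrpn and the lowest for Srsf6, Sf3b1 and Srsf11.

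The hnRNP genes were the steadiest of the 4 classes. Of 20 tested genes 10 lay above 0 and 10 below it, the median was -0.005, and none passed an unadjusted p of 0.05. Their fold changes ran from -0.33 for Hnrnpll to 0.38 for Hnrnpf (log2), and the median coefficient of variation among control hearts was 7.97%, against 16.6% over all tested genes. The control means of the class ran from 6.21 to 158 CPM, while the filter let in genes from 1 CPM, and levels were not matched.

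Hnrnpu (ENSMUSG00000039630), a nuclear matrix protein that binds RNA and chromatin, was at 134, 131 and 125 CPM in the controls and 134, 123 and 134 CPM in the knockouts. These are near-identical means, 130.2 ± 4.56 and 130.3 ± 6.56 CPM (SD, n = 3 each), with an interval of the log2 fold change from -0.39 to 0.39. Hnrnpa2b1, which packages nascent RNA and helps to sort RNAs in the cell, was at 156, 155 and 163 CPM in the controls and 142, 152 and 168 CPM in the knockouts (log2 fold change -0.04, interval -0.44 to 0.36). Both genes overlapped between groups.

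Hnrnpab (ENSMUSG00000020358), whose protein binds RNA and DNA, stood higher in all knockout hearts, at 94.9, 94.3 and 111 CPM against 85.3, 74.3 and 86.6 CPM in control hearts. The log2 fold change was 0.29 (SE 0.18, interval -0.12 to 0.69, edgeR adjusted p = 0.694), and it ran from 0.21 to 0.33 in the 6 fits that left out a library. Because the groups did not overlap, its sign could hardly change in these fits. Knockout heart 3 was the highest and control heart 2 the lowest, and without both the log2 fold change was 0.14. Hnrnpk (ENSMUSG00000021546), a KH-domain protein that binds C-rich RNA, was at 97.06, 96.5 and 93.6 CPM in the controls and 108, 98.003 and 135 CPM in the knockouts. The control values of Hnrnpk were the closest of all 51 genes (coefficient of variation 1.93%), and knockout heart 2 lay just above them (log2 fold change 0.25, interval -0.18 to 0.68, and 0.11 without knockout heart 3).

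Hnrnpul2, a relative of Hnrnpu, was at 25.1, 26.4 and 27.7 CPM in the controls and 25.01, 25.03 and 23.1 CPM in the knockouts. The lowest control value and the highest knockout value, 25.1 and 25.03 CPM, were almost level (log2 fold change -0.12, interval -0.49 to 0.26). Hnrnpf, which binds G-rich RNA, was at 6.47, 4.99 and 7.16 CPM in the controls and 7.34, 6.52 and 10.5 CPM in the knockouts (0.38, interval -0.18 to 0.95, 0.15 without knockout heart 3 and 0.24 without control heart 2). Hnrnpll, a regulator of alternative splicing in lymphocytes, was at 19.01, 26.4 and 15.9 CPM in the controls and 17.4, 17.7 and 13.7 CPM in the knockouts (-0.33, interval -0.86 to 0.20, -0.12 without control heart 2 and -0.22 without knockout heart 3).

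The 9 SF3 genes had a median of 0.02 (log2), with 5 above and 4 below 0. Sf3b4, Sf3b5 and Sf3b6 lay above 0, Sf3b1, Sf3b2 and Sf3b3 below it, and the 3 SF3A genes between -0.09 and 0.08; only Sf3b6 passed an unadjusted p of 0.05. Sf3b6 (ENSMUSG00000037361), also called p14, encodes the small subunit that contacts the branch-point adenosine. In hearts 1, 2 and 3 it was at 13.6, 8.32 and 15.1 CPM in the controls and at 16.3, 17.1 and 38.5 CPM in the knockouts. All knockout hearts lay above all control hearts, with knockout heart 3 far above the rest. The log2 fold change was 0.96 (SE 0.37, interval 0.11 to 1.80, unadjusted p = 0.0309), the largest of the 51, and the edgeR adjusted p over all genes was 0.694. It was 0.43 without knockout heart 3, and 0.73 to 1.17 without each of the other 5 libraries in turn. Without control heart 2 and knockout heart 3 together it was 0.22. As for Hnrnpab, the sign could hardly change when a library was left out.

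Sf3b5, another small subunit, was at 12.1, 9.61 and 15.5 CPM in the controls and 11.5, 13.5 and 25.9 CPM in the knockouts (0.45, interval -0.29 to 1.20). Sf3b4, which contacts pre-mRNA near the branch point, was at 5.58, 3.33 and 6.10 CPM in the controls and 5.50, 5.92 and 8.12 CPM in the knockouts (0.38, interval -0.26 to 1.01). In both genes knockout heart 3 was the highest and control heart 2 the lowest, and the other hearts overlapped.

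Sf3b1 (ENSMUSG00000025982), the large scaffold of SF3B and a gene often mutated in myelodysplasia, had the lowest fold change of the 51. It was at 187, 355 and 182 CPM in the controls and 207, 171 and 127 CPM in the knockouts. Control heart 2 was far above the rest and knockout heart 3 the lowest (log2 fold change -0.52, interval -1.23 to 0.19, edgeR adjusted p = 0.694). The value was -0.15 without control heart 2, -0.35 without knockout heart 3 and 0.03 without both. Sf3b2, a large subunit bound by SF3B4, was at 112, 117 and 106 CPM in the controls and 110, 109 and 75.0 CPM in the knockouts (-0.19, interval -0.66 to 0.28, and -0.03 without knockout heart 3), so that only knockout heart 3 lay apart.

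The snRNP protein genes had the highest class median. Of 12 genes 11 lay above 0, the median was 0.32 (log2), and none passed an unadjusted p of 0.05. This median was 0.04 without knockout heart 3, with 10 of 12 above 0, and 0.24 without control heart 2, with 9 of 12. Without both hearts it was 0.004, with 6 of 12 above 0. Knockout heart 3 was the highest of the 6 hearts for 11 of the 12 genes, where it was the highest for 33.9% of all tested genes. Control heart 2 was the lowest for 8 of the 12, and for 25.2% of all tested genes.

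Snrpd1 (ENSMUSG00000002477), a member of the Sm ring, was the snRNP gene whose groups did not overlap. It was at 17.1, 14.4 and 17.0 CPM in the controls and 18.5, 19.6 and 24.02 CPM in the knockouts. The log2 fold change was 0.35 (SE 0.19, interval -0.07 to 0.78, edgeR adjusted p = 0.694), and it ran from 0.23 to 0.43 in the fits that left out a library. As for Hnrnpab, its sign could hardly change in these fits. Without control heart 2 and knockout heart 3 together the log2 fold change was 0.16. Snrpn (ENSMUSG00000102252), an imprinted relative of Snrpb, had the highest fold change of the class. Its values were 4.69, 3.79 and 5.24 CPM in the controls and 4.82, 6.14 and 10.9 CPM in the knockouts, so that knockout heart 1 lay among the controls (0.67, interval -0.06 to 1.40, and 0.25 without knockout heart 3).

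Snrpe and Snrpg, also of the Sm ring, shared with Snrpn their lowest heart, control heart 2, and their highest, knockout heart 3. Snrpe was at 23.8, 19.8 and 26.7 CPM in the controls and 21.6, 28.7 and 51.1 CPM in the knockouts (log2 fold change 0.53, interval -0.18 to 1.24). Snrpg was at 15.2, 14.04 and 16.1 CPM in the controls and 16.6, 15.4 and 35.4 CPM in the knockouts (0.58, interval -0.15 to 1.30). Knockout heart 3 stood far above the control range of both genes, and knockout heart 1 just above that of Snrpg; these genes were named after their values were seen.

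Of the other members of the class, Snrpd3, of the Sm ring, had a log2 fold change of 0.40 (interval -0.32 to 1.12), Snrpb, the relative of Snrpn, 0.35, Snrpa1 and Snrpb2, proteins of the U2 snRNP, 0.30 and 0.27, and Snrpa, of the U1 snRNP, 0.06. In each of these, knockout heart 3 was the highest and another knockout heart lay within the control range or below it. Snrpf, of the Sm ring, was at 52.9, 39.3 and 53.5 CPM in the controls and 39.9, 51.2 and 69.1 CPM in the knockouts (0.14, interval -0.41 to 0.69). Snrpd2, also of the ring, was at 60.4, 49.9 and 68.9 CPM in the controls and 57.4, 62.9 and 67.0 CPM in the knockouts (0.06, interval -0.37 to 0.49). Snrpc, a protein of the U1 snRNP, was the 1 gene of the class below 0, at 10.1, 8.78 and 11.7 CPM in the controls and 8.22, 9.03 and 11.95 CPM in the knockouts (-0.07, interval -0.56 to 0.42).

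**Figure D3:**
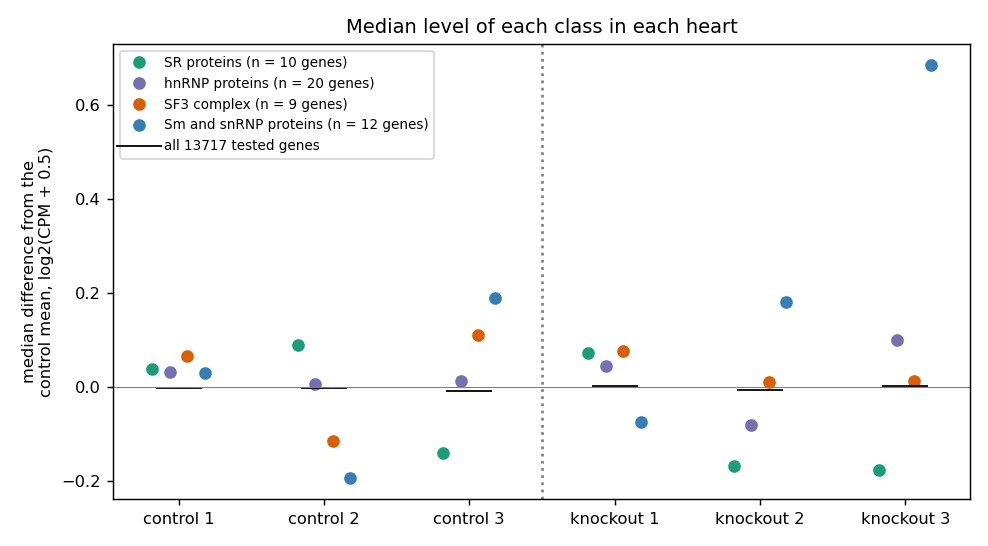
Median over the genes of each class of the difference from the control mean on the log2(CPM + 0.5) scale (y axis) in each heart (x axis); coloured points are the classes and black bars all 13717 tested genes. The snRNP genes lie at 0.69 in knockout heart 3 and at -0.19 in control heart 2, while the hnRNP genes stay between -0.08 and 0.10.

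Heart by heart, the class medians differed within both groups. On the log2(CPM + 0.5) scale and relative to the control mean, the median of the snRNP genes in hearts 1, 2 and 3 was 0.03, -0.19 and 0.19 for the controls and -0.08, 0.18 and 0.69 for the knockouts. The median of the SR genes was 0.04, 0.09 and -0.14 for the controls and 0.07, -0.17 and -0.18 for the knockouts. Control hearts 2 and 3 thus lay on opposite sides of 0 in both classes, with opposite signs for the 2 classes. The classes lay about as far apart in control heart 3 and knockout heart 2 as in control heart 2, and farthest apart in knockout heart 3. Malat1, TEC genes and mitochondrial rRNA were at their lowest in knockout heart 3 and at their highest in control heart 2, and their part was not tested.

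The same differences between hearts ran with the length of the genes, whose part in them was not tested. Against the mean of the other 5 hearts, the level in knockout heart 3 had a rank correlation of -0.58 with exon length across the 51 genes, and the level in control heart 2 one of 0.63. Across the 13185 tested genes with a length the same values were -0.21 and 0.20. The log2 fold change itself had a rank correlation with length of -0.61 across the 51 genes and -0.18 across the 13185. Over the 13185 its median was 0.05 up to 1000 bases, 0.13 from there to 2000, 0.07 to 4000 and -0.04 above 4000. These are descriptions across genes that share libraries, and genes are not independent replicates. Lengths are unions of exons in GENCODE M21, whose build differs from the mm39 of the files. The median length was 2388.5 bases for the snRNP genes, 3841 for the SF3 genes, 4399 for the tested SR genes and 5897.5 for the hnRNP genes, and 4252 for all tested genes. By class, the values for knockout heart 3 and control heart 2 were -0.16 and 0.07 for SR genes, -0.56 and 0.54 for hnRNP genes, -0.72 and 0.82 for SF3 genes and -0.32 and 0.38 for snRNP genes. In the SF3 class, where they were the largest of the 4, Sf3b6 at 2854 bases and Sf3b1 at 11370 bases had the differences 1.46 and -0.74 in knockout heart 3 and -1.12 and 1.04 in control heart 2.

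**Figure D4:**
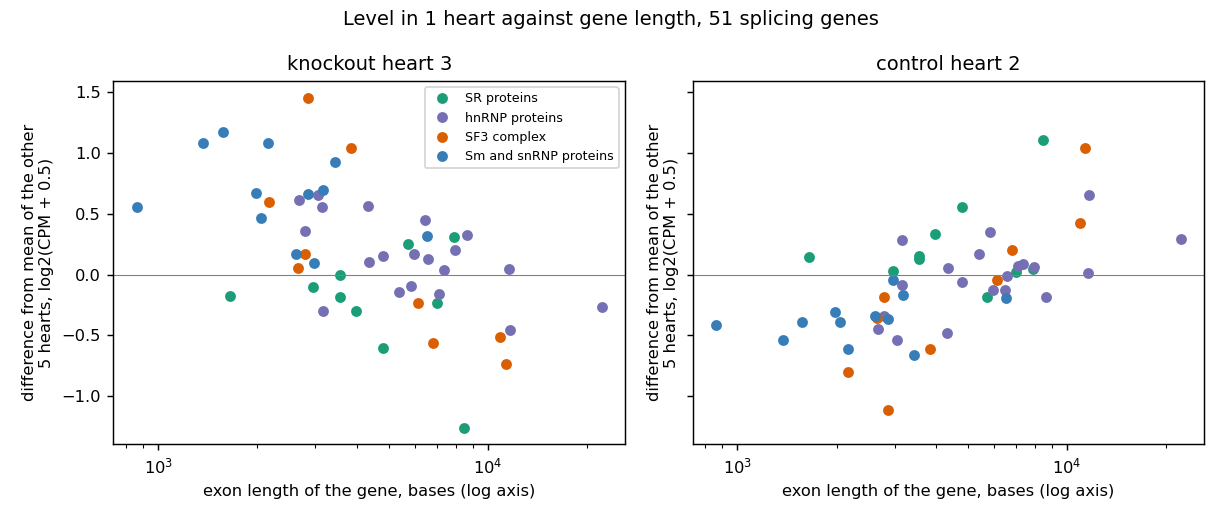
Difference of 1 heart from the mean of the other 5 on the log2(CPM + 0.5) scale (y axis) against exon length in bases (x axis, log scale) for the 51 tested genes, coloured by class, in knockout heart 3 (left) and control heart 2 (right). The 12 snRNP genes lie above 0 on the left and below 0 on the right, and the long Sf3b1 does the reverse.

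Levels between genes were compared per kilobase of exon in control hearts. Snrpf had the highest, 56.4 CPM per kilobase, followed by Hnrnpab at 29.5, Hnrnpa2b1 at 24.01, Hnrnpa1 at 23.7 and Snrpd2 at 22.8 CPM per kilobase. The lowest of the tested genes were Snrpc at 1.57 and Hnrnpll at 1.75 CPM per kilobase. Union exon lengths count rarely used exons, and the libraries were primed at the poly(A) tail, so these levels are approximate.

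The deposited counts of many of these genes hold split reads, as when a read is shared between genes or places. For 40 of the 53 genes the deposited count held a fraction of a read in at least 1 library, and for 19 the fraction was not a multiple of 0.5. Snrpg, Snrpf, Snrpn, Hnrnpa1, Hnrnpk and Hnrnpf were among the 19, and their values are uncertain to the extent that reads were split. Sf3b6, Sf3b5, Sf3b1 and Srsf6 had whole counts in every library.

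Beyond these classes, 118 other splicing genes were all tested, and 0 passed the adjusted threshold of edgeR. At unadjusted p below 0.05 there were 6 of 118, against the 5.14% of all tested genes. This count was 30 without knockout heart 1, where 12.7% of all tested genes passed, 3 without control heart 1, 2 without knockout heart 3 and 1 without control heart 2. With TMM scaling 59 genes lay above and 59 below 0, and with total counts 73 above. Ddx23, the helicase that releases the U1 snRNP, was at 9.63, 11.1 and 13.2 CPM in the controls and 7.75, 7.36 and 4.73 CPM in the knockouts (log2 fold change -0.78, SE 0.24, edgeR adjusted p = 0.694). Bud31, a protein of the catalytic spliceosome, was at 11.4, 9.15 and 9.55 CPM in the controls and 14.3, 12.4 and 19.1 CPM in the knockouts (0.61, SE 0.22). The groups did not overlap in either gene, nor in Pnn and Elavl1, given below. All knockout values exceeded all control values in 9 of the 118 genes and lay below them in 5. The shares over all tested genes were 6.26% and 5.82%. In the fits that left out a library Ddx23 ranged from -0.92 to -0.58 and Bud31 from 0.41 to 0.72. With groups that do not overlap, the sign could hardly change in these fits.

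The others below 0.05 were Luc7l, a partner of the U1 snRNP, Pnn, a nuclear speckle protein, Elavl1, an RNA stabiliser, and Bcas2, of the Prp19 complex. Luc7l was at 54.03, 68.9 and 38.5 CPM in the controls and 42.5, 27.4 and 14.0 CPM in the knockouts (-0.95, SE 0.39), so that the groups overlapped, and its fold change was -0.62 without knockout heart 3 and -0.40 without it and control heart 2. Pnn was at 41.1, 64.8 and 38.9 CPM in the controls and 34.7, 34.3 and 23.2 CPM in the knockouts (-0.65, SE 0.26, -0.39 without control heart 2 and -0.21 without it and knockout heart 3). Elavl1 was at 41.3, 37.1 and 46.0 CPM in the controls and 55.2, 48.4 and 66.8 CPM in the knockouts (0.45, SE 0.19, and 0.25 without the same 2 hearts). Bcas2 was at 12.6, 11.2 and 15.9 CPM in the controls and 13.7, 19.1 and 35.6 CPM in the knockouts (0.78, SE 0.34, and 0.31 without knockout heart 3).

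By role, the medians of the wider list ran from -0.28 to 0.11 (log2). Of 24 SR-related, exon junction complex and kinase genes 18 lay below 0, with a median of -0.28. Knockout heart 3 was the lowest heart for 17 of these 24 genes and control heart 2 the highest for 16, where the shares over all tested genes were 34.3% and 27.9%. The genes below 0 included the SR protein kinases Clk1 (log2 fold change -0.67) and Clk4 (-0.57) and the speckle scaffolds Son (-0.58) and Srrm2 (-0.44). Of the exon junction core genes, Magoh (0.79), Magohb (0.67), Rbm8a (0.50) and Eif4a3 (0.23) lay above 0 and Casc3 (-0.28) below it. Magoh was at 47.1 CPM in knockout heart 3 and at 12.7 to 21.9 CPM in the other hearts. None of the genes just named passed an unadjusted p of 0.05, and Pnn, given above, was the 1 of the 24 that did. Of 11 genes of splice site recognition 9 lay below 0 (median -0.27). Knockout heart 3 was the lowest heart for 7 of the 11 and control heart 2 the highest for 8, against the same shares. Of 40 other snRNP genes 26 lay above 0 (median 0.06). Of 24 genes of the catalytic steps 15 lay above 0 (median 0.06), and of 19 other hnRNP-like genes 10 (median 0.11). In these last roles knockout heart 3 was the highest heart for 16 and the lowest for 14 of the 40 snRNP genes, 9 and 6 of the 24 catalytic genes and 8 and 8 of the 19 hnRNP-like genes.

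The promoters were searched for the Y-box, since Ybx1 is the deleted gene, in the 250 bases before each start in RefSeq (GRCm38.p6), on both strands. The core ATTGG, or CCAAT on the other strand, was present for 22 of the 46 genes of the 4 classes with a promoter there, and for 40.2% of the tested genes with one. The longer CTGATTGG, which contains the core, was present for 5 (Hnrnph2, Hnrnpul1, Snrpf, Srsf2 and Srsf3), and for 5.99% of the tested genes. A match is a run of letters and not a site of binding. The promoters of Snrpf and Srsf3, which hold the longer form, are shown beside that of Sf3b6, the gene with the smallest p, whose window holds neither form; capitals mark the core.
Snrpf, chr10:93589659-93589908, minus strand: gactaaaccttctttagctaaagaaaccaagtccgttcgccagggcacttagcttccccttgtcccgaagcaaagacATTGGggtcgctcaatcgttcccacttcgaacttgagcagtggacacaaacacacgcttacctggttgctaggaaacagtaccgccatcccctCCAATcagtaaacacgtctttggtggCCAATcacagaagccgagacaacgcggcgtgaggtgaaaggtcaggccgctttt
Srsf3, chr17:29032410-29032659, plus strand: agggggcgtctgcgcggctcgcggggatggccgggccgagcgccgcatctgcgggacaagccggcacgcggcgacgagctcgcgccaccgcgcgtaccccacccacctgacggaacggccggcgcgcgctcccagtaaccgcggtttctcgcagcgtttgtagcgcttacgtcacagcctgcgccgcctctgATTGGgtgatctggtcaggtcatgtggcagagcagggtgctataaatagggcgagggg
Sf3b6, chr12:4817358-4817607, plus strand: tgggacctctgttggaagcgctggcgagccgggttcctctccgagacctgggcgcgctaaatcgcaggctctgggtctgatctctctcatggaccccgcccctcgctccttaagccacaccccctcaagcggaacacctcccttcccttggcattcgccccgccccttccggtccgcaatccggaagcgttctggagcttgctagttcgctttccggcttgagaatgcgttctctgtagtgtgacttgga

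The 5 genes with the longer form had log2 fold changes of -0.01 for Hnrnph2, 0.14 for Hnrnpul1, 0.14 for Snrpf, -0.10 for Srsf2 and 0.07 for Srsf3. None passed an unadjusted p of 0.05.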

How the data were processed

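Per the labels' protocols, RNA was extracted with TRIzol and copied from poly(A) tails, and the cDNA was tagmented and amplified by PCR. Per the submitters' processing notes, the build was mm39 and STAR 2.7.11, featureCounts, Subread 2.1.1, SAMtools 1.22.1 and edgeR 4.0.16 were used, with no role stated; the sources used here give no annotation release, strand setting or rule for multi-mapping reads. Per library, the authors deposited estimated counts, part of them fractions of a read, and CPM without a scaling factor. Counts were rounded and tested with edgeR 4.0.16 (R 4.3.3; quasi-likelihood, TMM, Benjamini-Hochberg over 13717 genes that reached 1 CPM in 3 or more libraries, threshold 0.05), after a test on simulated data. DESeq2 1.42.0, limma-trend 3.58.1 on log2(CPM + 0.5) and log2(CPM + 2), other scalings, no filter, a heart-number block and fits without each library were alternatives. SEs derive from the F statistic. Depth limits low genes, and intervals cover these 6 libraries only. The genes, classes and the wider list were chosen with earlier results of these data known. Genes given heart by heart were Ybx1, members below an unadjusted p of 0.05 or with groups that do not overlap, the 2 highest in CPM of each class and those with the extreme fold changes of each class, and in the wider list those below 0.05; Sf3b4, Sf3b5, Snrpe, Snrpg and the other genes named were chosen after their values were seen.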

Additional observations from a re-analysis of the deposited data

How the results depend on the processing

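With deposited CPM or total counts alone as the scale, the median of all tested genes moved from 0.01 to 0.12 (log2(CPM + 2)), 0.14 (log2(CPM + 0.5)) or 0.17 (total counts), so genes near 0 crossed it. Under log2(CPM + 0.5), log2(CPM + 2) and total counts the median log2 fold change was 0.20, 0.19 and 0.21 for the 51 genes, 0.10, 0.094 and 0.11 for SR genes, 0.15, 0.15 and 0.16 for hnRNP genes and 0.17, 0.17 and 0.17 for SF3 genes. In the same order Hnrnpa2b1 turned to 0.12, 0.12 and 0.12, Hnrnpul2 to 0.040, 0.037 and 0.038 and Snrpc to 0.077, 0.068 and 0.090. Relative to the median of all genes these were close to the values with TMM, and 65.6%, 65.9% and 67.1% of all tested genes then lay above 0 in place of 51.1%, as did 42, 42 and 43 of the 51 genes and 72, 72 and 73 of the 118 of the wider list. Hnrnpu turned to -0.0096 in DESeq2 and -0.0098 in edgeR with DESeq2-type size factors.

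Without each library in turn, 0 to 1 of all genes, 0 of the 51 genes and 0 of the wider list passed edgeR's threshold. The ranges of the median were 0.007 to 0.06 for the 51 genes, -0.15 to -0.03 for SR, -0.05 to 0.04 for hnRNP, -0.02 to 0.06 for SF3 and 0.04 to 0.46 for snRNP genes. Ybx1 ranged from -2.60 to -2.18. Some genes given heart by heart by rule changed sign without a library. Their fold changes ranged from -0.10 to 0.012 for Hnrnpa2b1, -0.027 to 0.029 for Hnrnpu and -0.25 to 0.044 for Snrpc. The ranges were -0.065 to 0.18 for Snrpd2, -0.092 to 0.31 for Snrpf and -0.046 to 0.17 for Srsf3. Other members also crossed 0. Of the SR genes, 4 lay above 0 with all libraries and 2 without knockout heart 1, where Srsf3 stayed above it. Without control heart 2 and knockout heart 3 together, chosen after seeing the data, 1 gene passed (Ybx1, -2.22), and the snRNP median was 0.0040. Hnrnpll was then at 0.0074, Hnrnpu at -0.013, Sf3b1 at 0.035, Sf3b2 at 0.0013, Snrpd2 at -0.11, Snrpf at -0.22, Srsf11 at 0.25, Srsf3 at -0.013 and Srsf5 at 0.011.

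DESeq2 called 15 genes, none of the 51, and Ybx1 passed at -2.41. Without the filter edgeR called 133 of 33251 genes, Ybx1 (-2.38) among them and 1 of the 51, Sf3b6 (0.98, adjusted p = 0.0295). With the heart number as a replicate block 5 genes passed, Ybx1 (-2.44, adjusted p = 0.00424) among them and none of the 51. At unadjusted p below 0.05 the block gave 2 of the 51 and 31 of the wider list (13.2% of all genes), and the fit without the filter 4 and 23 (7.48%). The labels do not state that the numbers pair hearts, so the block was an alternative only. Deviations of same-numbered hearts correlated at -0.11, 0.45 and 0.56. Those of differently numbered hearts correlated at -0.68 to 0.56, and these values cannot settle whether hearts were paired. The causes of these changes were not tested. Depth limits the genes of few counts, such as Snrpn, Sf3b4 and Hnrnpf.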
